A study of Arabidopsis thaliana with 10 samples.

Results

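CHLM (AT4G25080) and HEME1 (AT3G14930) are 2 genes of tetrapyrrole synthesis, the chloroplast pathway that makes chlorophyll and heme. Their transcript levels were followed in Arabidopsis thaliana plants of 2 ecotypes with and without cold. Each gene has 1 probe set annotated to it and to no other gene. These are 2 of 13286 genes with such a probe set in the annotation used here. They were chosen by their falls after 24 h of cold in Col and C24, measured on these arrays, so their levels and differences are given as a description, with no test.

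The study hybridised RNA to 10 Affymetrix arrays of 1 colour in 5 groups of 2, described in the series as biological replicates. The groups were Col, the ecotype of the reference genome, at room temperature (RT) and after 24 h at 4 °C, and C24, another natural accession, at RT, after 3 h and after 24 h at 4 °C. No Col arrays were made at 3 h. All plants grew on plates in a 23/18 °C chamber and the labels name no mutation or transgene. Leaf at 20 days is the tissue label, but the design text of the series has 14 day seedlings. RT-grown plants of the same ecotype are the main controls, and cold C24 is also compared with Col at RT.

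Tetrapyrrole synthesis starts from glutamate, builds the ring in a shared trunk and then divides: iron enters the ring in the heme branch, and magnesium enters it in the chlorophyll branch. HEME1 encodes a uroporphyrinogen decarboxylase, a trunk enzyme that removes carboxyl groups from the side chains of the ring before the pathway divides. CHLM encodes the magnesium protoporphyrin methyltransferase, which acts right after magnesium insertion and so serves chlorophyll alone. In green tissue most of the flow goes to chlorophyll, and free intermediates of the pathway are phototoxic.

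Levels are RMA signals in log2 units as the authors deposited them, and each change is given in those units. The median SD between the arrays of a group was 0.0534 (C24, 24 h) to 0.0695 (Col, 24 h). Groups of 2 arrays set the limit of precision. The group means of C24 and Col differed by 0.761 at RT (root mean square over probe sets), more than after 24 h of cold (0.604). Col at RT lay about as far from C24 at 24 h (0.755), and C24 at RT lay 0.567 from C24 at 3 h. These distances do not tell which RT group is the unusual one. Most cold responses of C24 are therefore also given against Col at RT, a comparison that includes the ecotype difference at RT. The leaf gene RCA (Rubisco activase), the 1 measured leaf marker of 10 listed, stood at 13.68 to 14.10 in the 5 groups. The root gene PYK10 was also high, at 10.61 to 12.81. After 24 h of cold RCA went the way of CHLM and HEME1: it fell by 0.42 in Col (limma adjusted p = 0.00047) and by 0.19 in C24 (0.0442; -0.23 and 0.0165 against Col at RT). Its C24 call was lost with either scaling alternative, with the compared arrays alone and without any single array other than those of Col at 24 h (0.0511 to 0.227). The mean log2 signal of the 3 measured root markers of 12 listed was 8.69 and 8.93 in Col at RT, 8.11 and 8.10 in Col after 24 h, 6.78 and 6.85 in C24 at RT, 7.86 and 7.89 at 3 h, and 7.40 and 7.39 at 24 h. This mean was lower in the cold in Col and higher in C24, but below both Col RT arrays on every C24 array, whereas CHLM and HEME1 were lower after 24 h in both ecotypes. The part of leaf and root markers in the results was not tested. The signal difference between 3' and 5' GAPDH control probe sets, a sign of RNA quality, lay between 0.09 and 0.31 on the 4 Col arrays and between 0.37 and 0.86 on the 6 C24 arrays. The mean signal of the poly-A spike probe sets, bacterial controls added to the RNA before labelling, was 5.53 to 5.57 on the Col arrays and 6.53 to 6.83 on the C24 arrays. The ranges of the ecotypes did not overlap for either measure, so these differences and the ecotype cannot be told apart. In leaf or whole seedling samples alike, fewer green cells and less RNA per cell cannot be told apart.

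CHLM was high in the 3 groups that had seen no cold or 3 h of it and low in both 24 h groups. Its signal was 11.94 and 11.98 in Col at RT and 10.97 and 11.02 in Col after 24 h of cold. In C24 it was 12.01 and 12.07 at RT, 11.85 and 11.85 after 3 h, and 10.33 and 10.32 after 24 h. No group overlapped another, and C24 after 24 h was the lowest by a wide gap.

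HEME1 had the same division into high and low groups. Its signal was 10.03 and 10.06 in Col at RT and 8.74 and 8.93 in Col after 24 h. In C24 it was 10.38 and 10.35 at RT, 9.88 and 9.96 after 3 h, and 8.80 and 8.78 after 24 h. The 24 h arrays of the ecotypes overlapped each other and lay below all other arrays. All values of both genes lay above the upper quartile of their arrays (8.22 to 8.29), far from the background range under the lower quartile (4.48 to 4.52).

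**Figure D1:**
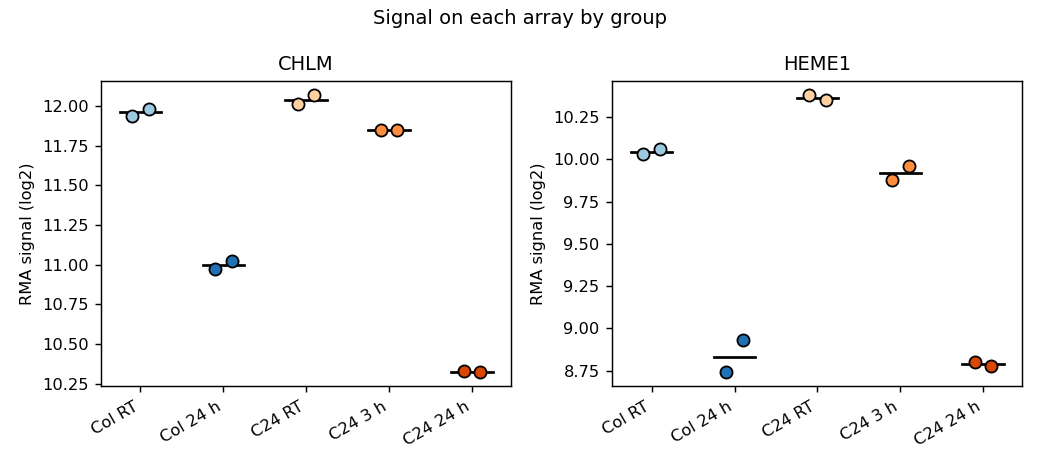
RMA signal (log2) of CHLM and HEME1 on each of 10 arrays, by group, with points for arrays and bars for group means of 2 arrays. Both genes are lowest in the 24 h groups, and C24 after 24 h lies below Col after 24 h for CHLM but overlaps it for HEME1. The vertical axes do not start at 0 and differ between panels.

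Ordered by mean, both genes ran from C24 at RT through Col at RT, C24 at 3 h and Col at 24 h down to C24 at 24 h. For CHLM the neighbours in this order differed by 0.08, 0.11, 0.85 and 0.67. The first gap is close to the SE of a difference for this probe set (0.07), and the lower C24 array at RT lay 0.03 above the higher Col one. For HEME1 the gaps were 0.32, 0.13, 1.08 and 0.04. The last of these lies inside the spread between the Col arrays at 24 h (SD 0.13), so the cold levels of HEME1 are not ordered between the ecotypes.

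In Col, the difference after 24 h of cold was -1.21 ± 0.08 for HEME1 (SE, n = 2 per group), a level 2.31-fold lower. It was -0.96 ± 0.07 for CHLM, a level 1.95-fold lower. HEME1 thus had the larger difference in Col: 591 of 22746 probe sets had a lower one than HEME1, and 1031 a lower one than CHLM.

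In C24 the order of the 2 genes was the other way round. The difference after 24 h was -1.72 ± 0.07 for CHLM, a level 3.29-fold lower, and 353 probe sets had a lower one. It was -1.57 ± 0.08 for HEME1, a level 2.98-fold lower, and 440 probe sets had a lower one. Against Col at RT, which leaves out the C24 arrays at RT, the C24 24 h level differed by -1.63 for CHLM and by -1.25 for HEME1. Both comparisons put the 24 h level of each gene below every RT array of either ecotype.

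Measured from C24 at RT, the 2 genes differed in their 3 h levels. After 3 h the difference from RT was -0.45 ± 0.08 for HEME1 and -0.19 ± 0.07 for CHLM. These are 28.4% and 11.2% of the respective 24 h differences, so most of the log2 difference of either gene lay between 3 h and 24 h. From 3 h to 24 h the further difference was -1.52 ± 0.07 for CHLM and -1.13 ± 0.08 for HEME1. Against Col at RT the 3 h levels differed by -0.11 ± 0.07 for CHLM and -0.13 ± 0.08 for HEME1, so the genes were not separated at 3 h with that control. Both early differences were smaller there, and that of HEME1 shrank the more.

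Between ecotypes, the genes differed at opposite ends of the experiment. At RT, HEME1 was higher in C24 than in Col by 0.32 ± 0.08 and CHLM by 0.08 ± 0.07. After 24 h of cold, CHLM differed by -0.67 ± 0.07 in C24 against Col and HEME1 by -0.04 ± 0.08, which turned to 0.05 without Col 24 h replicate 2. The 24 h response in C24 minus that in Col was -0.75 ± 0.09 for CHLM and -0.36 ± 0.11 for HEME1. For HEME1 this difference of responses came with a higher RT level in C24, and for CHLM with a lower cold level. A signal difference between ecotypes on 1 probe set and a difference in how the transcripts of C24 match its probes cannot be told apart.

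**Figure D2:**
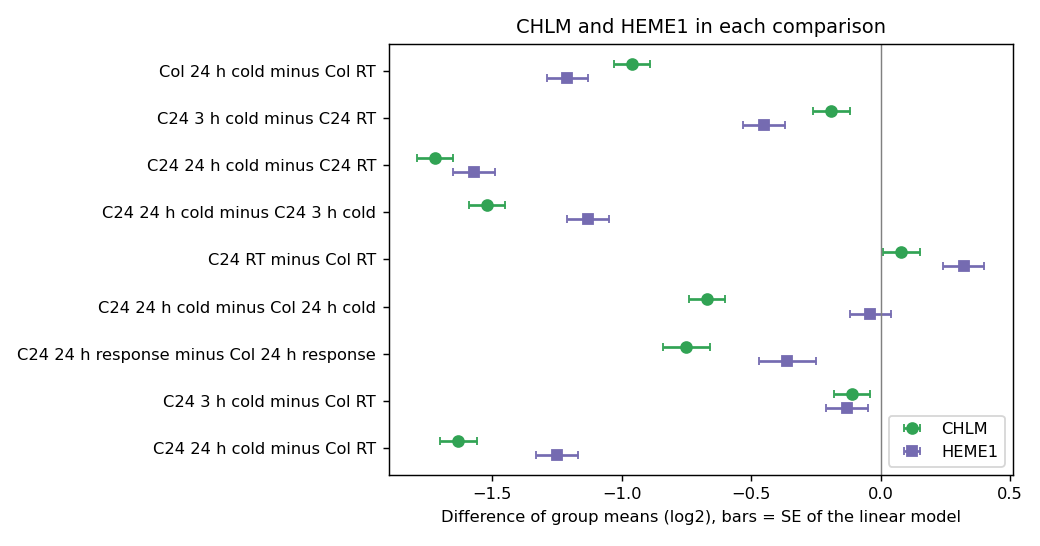
Difference of group means (log2) for CHLM and HEME1 in each comparison, with the SE of the linear model as bars (2 arrays per group). The lines with 24 h of cold against RT lie between -1.72 and -0.96, those with 3 h between -0.45 and -0.11, and the ecotype difference is near 0 at RT for CHLM and after 24 h for HEME1.

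The other genes of the pathway show how far the pattern reaches. Of 40 listed genes of tetrapyrrole synthesis, 13 had a probe set that the probe annotation used here assigns to them alone. A gene without one counts as not measured, whether or not the array holds probes for it. Beside CHLM and HEME1, 11 of the 13 are left: 7 of the trunk, 3 of the chlorophyll branch and 1 of the siroheme branch. The remaining 27 were not analysed here. The list was drawn with earlier results of these data known. These 11 were tested with limma (two-sided, Benjamini-Hochberg adjusted over 22746 probe sets, called at an adjusted p below 0.05). The C24 comparisons with RT share their control arrays, and the difference of responses uses the arrays of both ecotypes again.

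In Col after 24 h, 4 of the 11 pathway genes were called lower and 3 higher, with a median of -0.06 beside 0.01 for all probe sets. Over all probe sets, 25.9% were called lower and 23.2% higher, and the pathway genes were likewise called in both directions. HEME2 (AT2G40490), the second uroporphyrinogen decarboxylase gene, fell from 10.96 and 10.93 to 10.57 and 10.69, by 0.32 ± 0.08 (SE, adjusted p = 0.00506). That is a smaller difference than the -1.21 of HEME1, which encodes an enzyme for the same step but was chosen by its fall. HEMF2 (AT4G03205), annotated as a coproporphyrinogen oxidase gene of the following step, fell by 0.57 (adjusted p = 0.00097), and AT1G74470, the geranylgeranyl reductase that supplies the chlorophyll side chain, by 0.42 (adjusted p = 0.000408).

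The rises in Col included 2 of the 3 measured chlorophyll branch genes beside CHLM: CHLI2 before it in the pathway and PORB after it. The third, AT1G74470, fell. PORB (AT4G27440), the protochlorophyllide oxidoreductase that needs light, rose from 11.84 and 11.85 to 12.21 and 12.28, by 0.40 ± 0.07 (adjusted p = 0.000459). CHLI2 (AT5G45930), a subunit of the magnesium chelatase that makes the substrate of CHLM, rose by 0.31 ± 0.08 (adjusted p = 0.00591). HEMA2 (AT1G09940), a glutamyl-tRNA reductase of the first committed step, rose by 0.32 (adjusted p = 0.0217), and SIRB (AT1G50170), the sirohydrochlorin ferrochelatase of siroheme synthesis, fell by 0.23 (adjusted p = 0.0206). The call of HEMA2 was lost without Col RT replicate 2 (adjusted p = 0.12) or Col 24 h replicate 2 (0.195). That of SIRB was lost without Col RT replicate 2 (0.134), without Col 24 h replicate 1 (0.115) and with the Col arrays alone in the fit (0.0607). GSA1 (AT5G63570), the glutamate semialdehyde aminotransferase, and HEMB1 (AT1G69740), the aminolevulinate dehydratase, stood at 0.04 and -0.08, short of the threshold. HEMA3 and HEMB2, further copies of those early steps, had signals of 4.05 to 4.85 at or near the background range on all arrays, and neither was called in any comparison on the deposited values with all 10 arrays in the fit. With median centring HEMB2 was called in C24 at 3 h (-0.30, adjusted p = 0.0322) and from 3 h to 24 h (0.27, 0.0471).

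In C24 after 24 h, 6 of the 11 genes were called lower and none higher by limma (0 higher at an unadjusted p under 0.05), with a median of -0.24 beside -0.02 for all probe sets, where 25.4% were called lower and 24.1% higher. PORB fell from 12.65 and 12.60 to 11.61 and 11.63, by 1.00 ± 0.07 (adjusted p = 2.12e-07), and every cold array lay below every RT array of either ecotype. HEMF2 fell by 1.35 ± 0.11 (adjusted p = 9.7e-07), from 7.28 and 7.17 to 5.88 and 5.88. HEME2 fell by 0.97 ± 0.08 (adjusted p = 9.43e-07), again less than HEME1.

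Smaller falls were called for HEMA2 (-0.54), HEMB1 (-0.49) and CHLI2 (-0.24), with adjusted p-values of 0.000975, 0.000106 and 0.0257. CHLI2 was lost without C24 RT replicate 1 (adjusted p = 0.157) or without C24 24 h replicate 1 (0.0574) or 2 (0.135). SIRB (0.02), AT1G74470 (-0.01) and GSA1 (-0.15) were not called.

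With Col at RT as the control, 5 of the 11 genes were called lower and none higher by limma in C24 after 24 h (0 higher at an unadjusted p under 0.05), against 26.9% and 31.2% of all probe sets. The falls of HEME2 (-0.89), HEMB1 (-0.55), HEMF2 (-0.41) and PORB (-0.23) passed there too, that of AT1G74470 (-0.22) was called there as well, and HEMA2 (-0.14, limma adjusted p = 0.274) and CHLI2 (-0.01, 0.963) were not called. CHLM and HEME1 had larger differences from Col at RT than any of the 11, but the pair was chosen by its 24 h falls on these arrays.

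**Figure D3:**
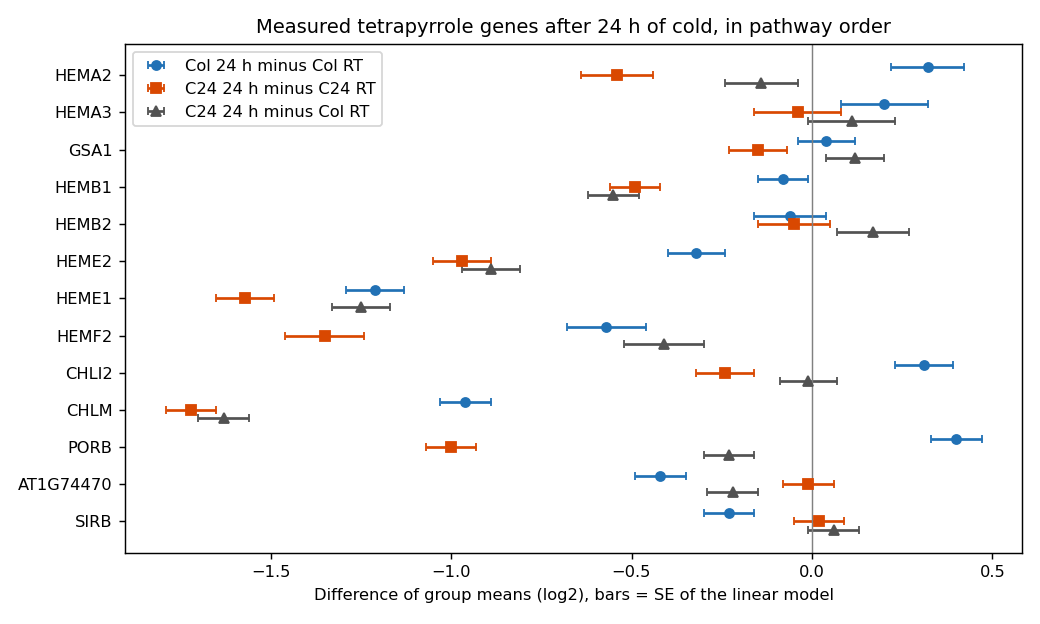
Difference after 24 h of cold (log2, bars for the SE of the linear model) for the 13 measured tetrapyrrole genes, from the first steps at the top to the chlorophyll and siroheme branches at the bottom, in Col, in C24 against C24 at RT and in C24 against Col at RT. HEME1 and CHLM, chosen by their 24 h falls, lie furthest to the left in each series. HEMF2 is next in C24 against C24 at RT (-1.35 beside -1.57 for HEME1). PORB, CHLI2 and HEMA2 lie right of 0 in Col and left of it in C24 against C24 at RT. Against Col at RT, CHLI2 lies at -0.01 and HEMA2 at -0.14, and neither was called.

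At 3 h in C24, 7 of the 11 genes were called lower and 1 higher (23.2% and 22.5% of all probe sets), with a median of -0.26 beside -0.04 for all. HEMF2 (-0.70), HEME2 (-0.55), PORB (-0.55), CHLI2 (-0.48) and HEMA2 (-0.42) were among the falls, with limma adjusted p-values from 4.97e-05 to 0.00629. Each had a value at least as far below RT as HEME1 at that time except HEMA2, and all lay further than CHLM. For HEME2 the 3 h difference was 57.0% of that at 24 h, against 28.4% for HEME1. AT1G74470 rose by 0.38 (adjusted p = 0.00101), but stood at 0.16 against Col at RT (0.0826).

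Several 3 h calls differed with Col at RT in place of C24 at RT. The comparison with Col at RT also includes the ecotype difference at RT, which was 0.78 for PORB and 0.94 for HEMF2. Against Col at RT, 3 of the 11 genes were lower and 1 was higher (21.9% and 26.0% of all probe sets): HEME2 (-0.48), HEMB1 (-0.28) and CHLI2 (-0.25) were lower, whereas PORB was higher by 0.23 (limma adjusted p = 0.0148). HEMF2 stood at 0.24 (adjusted p = 0.0963) and HEMA2 at -0.02 (0.91). The calls of GSA1 (-0.25, adjusted p = 0.0216), HEMB1 (-0.21, 0.0256) and HEMA2 were also lost with single arrays left out. GSA1 was lost without C24 RT replicate 1 (0.0614) or 2 (0.0863) or C24 3 h replicate 1 (0.111). HEMB1 was lost without C24 RT replicate 2 (0.156), without C24 3 h replicate 1 (0.119) or 2 (0.0545) and with the C24 arrays of the comparison alone (0.0625), and HEMA2 without C24 RT replicate 2 (0.0637).

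From 3 h to 24 h in C24, 5 of the 11 genes fell further and 1 rose (22.5% and 21.7% of all probe sets). HEMF2 (-0.65), PORB (-0.46), HEME2 (-0.42), AT1G74470 (-0.39) and HEMB1 (-0.27) fell, with limma adjusted p-values from 0.000187 to 0.00746. Each fell by less than HEME1 (-1.13) or CHLM (-1.52), which were chosen by their 24 h falls. CHLI2 rose by 0.24 (adjusted p = 0.026), and lost its call without C24 3 h replicate 1 (0.195) or C24 24 h replicate 1 (0.138) or 2 (0.0601).

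Between ecotypes at RT, 5 of the 11 genes were called higher in C24 and 1 lower (32.7% and 23.4% of all probe sets). HEMF2 was higher by 0.94 (adjusted p = 2.1e-05) and PORB by 0.78 (adjusted p = 1.92e-06), both more than HEME1. HEMA2 (0.40), GSA1 (0.27), CHLI2 (0.23) and AT1G74470 (-0.22) passed with limma adjusted p-values of 0.00651 to 0.0257, and each was lost with single arrays of the 2 groups left out. HEMA2 was lost without C24 RT replicate 2 (0.065). GSA1 was lost without Col RT replicate 1 (0.0797) or C24 RT replicate 2 (0.0573). CHLI2 was lost without Col RT replicate 1 (0.1) or 2 (0.0658), without C24 RT replicate 1 (0.153) and after another quantile normalisation (0.0815). AT1G74470 was lost without Col RT replicate 1 (0.122) or C24 RT replicate 1 (0.0767) or 2 (0.064).

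After 24 h of cold, 5 of the 11 genes were lower in C24 than in Col and 2 higher (21.2% and 28.1% of all probe sets). The lower ones were PORB (-0.62), HEME2 (-0.57), HEMB1 (-0.47), HEMA2 (-0.46) and CHLI2 (-0.32), with limma adjusted p-values from 1.62e-05 to 0.00558, which stand beside -0.67 for CHLM. HEME2 thus differed between the ecotypes in the cold, where HEME1 had overlapping arrays. SIRB (0.29, adjusted p = 0.00571) and AT1G74470 (0.20, adjusted p = 0.0364) were higher. SIRB was lost without C24 24 h replicate 1 (0.0501), and AT1G74470 without Col 24 h replicate 2 (0.172), without C24 24 h replicate 1 (0.119) or 2 (0.123) and with the arrays of the 2 groups alone (0.0672).

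The difference of the 24 h responses was called for 7 of the 11 genes, 6 with a lower response in C24 and 1 with a higher one (19.1% and 20.4% of all probe sets). PORB had the largest, at -1.40 ± 0.10 (adjusted p = 4.93e-07), beside -0.75 for CHLM and -0.36 for HEME1. Taking the calls in each ecotype against its own RT arrays together, HEME2 and HEMF2 were lower in both, and PORB, CHLI2 and HEMA2 were higher in Col and lower in C24. Against Col at RT the C24 falls of CHLI2 (-0.01) and HEMA2 (-0.14) were not called. Single arrays left out also ended the C24 call of CHLI2 and the Col call of HEMA2. HEMB1 was called lower in C24 only, with the difference of responses at -0.40 (adjusted p = 0.00657). AT1G74470 and SIRB were called lower in Col only, and the difference of responses was 0.42 (adjusted p = 0.0061) for the first and missed the threshold for the second (0.25, adjusted p = 0.0801).

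Of the listed genes whose proteins use or break down chlorophyll, few had a probe set annotated to them alone. The antenna protein genes LHCB4.1, LHCB4.2 and LHCB4.3, 3 of 21 listed chlorophyll-binding proteins, fell in both ecotypes after 24 h, with differences of -0.25, -0.91 and -0.80 in Col and -0.28, -1.07 and -0.89 in C24 (limma adjusted p-values from 1.94e-07 to 0.0105). LHCB4.3 (AT2G40100) went up by 0.43 at 3 h in C24 (adjusted p = 0.000383), while CHLM (-0.19) and HEME1 (-0.45) stood below RT. LHCB4.1 was called lower at 3 h in C24 (-0.24, limma adjusted p = 0.0145), as the pair stood, but not against Col at RT (-0.05, 0.599). That 3 h call was also lost with some single arrays left out. LHCB4.1 was lost in Col without Col RT replicate 2 (0.0708). The C24 24 h differences against Col at RT were -0.09 for LHCB4.1 (limma adjusted p = 0.265), -1.91 for LHCB4.2 (2.01e-09) and -0.63 for LHCB4.3 (1.21e-05). The 3 h differences of LHCB4.2 were -0.08 against C24 at RT (0.382) and -0.92 against Col at RT (1.13e-06), while LHCB4.3 stood at 0.70 against Col at RT (8.54e-06).

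Of 12 listed genes of chlorophyll breakdown, 2 were measured. NOL (AT5G04900), a chlorophyll b reductase, fell in Col by 0.36 (adjusted p = 0.000992), in C24 at 3 h by 0.99 (adjusted p = 4.75e-07) and in C24 at 24 h by 0.54 (adjusted p = 4.6e-05), so that unlike CHLM and HEME1 its level was lowest at 3 h, at 8.30 and 8.27. From 3 h to 24 h it rose by 0.46 (adjusted p = 0.000227). Its C24 differences against Col at RT were -0.82 at 3 h (2.15e-06) and -0.36 at 24 h (0.000799). AT1G44000, which the annotation names by locus alone, fell by 0.98 in Col (adjusted p = 1.36e-06) and stood at 0.11 in C24 at 24 h (adjusted p = 0.302). Its C24 24 h level was called lower against Col at RT (-0.21, adjusted p = 0.0438), a comparison that includes its ecotype difference at RT (-0.31). The sign and the call thus both depended on which RT arrays were the control.

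Of 13 listed regulators, 3 were measured. LIL3:1 (AT4G17600), a light-harvesting-like protein known to hold geranylgeranyl reductase at the thylakoid membrane, fell by 0.58 in Col (adjusted p = 6.17e-05) and by 0.44 in C24 at 24 h (adjusted p = 0.000425). Its relative LIL3:2 (AT5G47110) fell by 0.30 in C24 (adjusted p = 0.00326) and stood at -0.10 in Col. Against Col at RT the C24 24 h values were 0.12 and 0.16, and neither was called. Both genes were also higher in C24 than in Col at RT (0.56 for LIL3:1 and 0.46 for LIL3:2) and after 24 h (0.70 and 0.26). The comparison with Col at RT thus includes this ecotype difference. AT2G35260 was not called at 24 h in either ecotype against its own RT arrays (-0.15 and -0.08), and against Col at RT it was called higher in C24 (0.28, adjusted p = 0.00384). At 3 h it fell by 0.38 in C24 (adjusted p = 0.000791) and stood at -0.02 against Col at RT (0.871). None of 7 listed genes of S-adenosylmethionine supply, the methyl donor of CHLM, had a probe set that the annotation used here assigns to it alone.

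The genes most like each of the pair were found by the root mean square distance between patterns over the 5 group means, after each gene's mean over groups was subtracted, among 9340 other named genes above the lower quartile of mean signal. For CHLM these were SKU5 (AT4G12420, distance 0.132 log2 units), AT3G62010 (0.138), AT5G19940 (0.138), ATG8F (AT4G16520, 0.144) and AT1G52220 (0.148), annotated as the thylakoid protein CURT1C. For HEME1 they were AT4G00780 (0.0882), scpl26 (AT2G35780, 0.0964), AT3G14760 (0.109), AT3G11930 (0.113) and AT5G65760 (0.125). The nearest genes of the pair had no member in common. CHLM and HEME1 lay 0.218 apart, which placed HEME1 at rank 35 from CHLM and CHLM at rank 61 from HEME1. The distances rest on 5 means of 2 arrays each and describe these groups only.

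**Figure D4:**
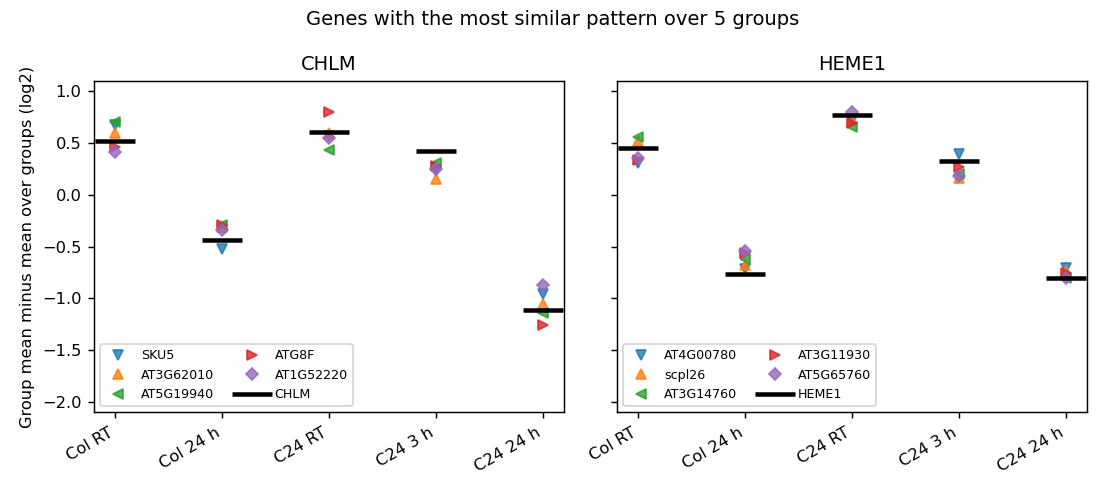
Group mean minus the mean over the 5 groups (log2) for CHLM and HEME1, drawn as black bars, and for the 5 genes nearest to each, drawn as symbols. In C24 after 24 h the CHLM panel spreads from -1.26 to -0.87 and the HEME1 panel from -0.80 to -0.71, and in both panels the 24 h groups lie below 0 and the other groups above it.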

How the data were processed

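The authors deposited log2 signals per probe set, made with GCOS and RMA per the submitters' processing notes, without stated versions. RMA corrects background, normalises quantiles and summarises probes; no source used here says whether all 10 arrays were run together. The table holds 22810 probe sets; 64 are controls, and the other 22746 were tested without a filter on low values. Genes were named where the probe annotation gives 1 gene (13513 probe sets), with loci through RefSeq for TAIR10.1 (13436 matched). Of the tested probe sets, 503 are annotated to several genes and 8730 to none.

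All 10 arrays entered 1 linear model with a mean per group (limma 3.58.1, lmFit and eBayes, under R 4.3.3), and p-values were Benjamini-Hochberg adjusted within each comparison. SEs are limma's moderated ones, and SDs are between the arrays of a group. CHLM, HEME1 and all gene lists were chosen with earlier results of these data known. Named genes were this pair, every measured gene of tetrapyrrole synthesis, of each other list all members where at most 5 were measured, and the 5 genes nearest to each of the pair. Tested on simulated data with 22746 probe sets for 24 h against RT in C24, with 100 changed at each size, the fit recovered 61% of log2 changes of 0.5 and 98% of changes of 1, with 10 false calls. In the data 11254 probe sets were called for this comparison, so these rates do not carry over to it. Alternatives were another quantile normalisation, median centring, a replicate block, a trended robust prior, dim probe sets left out, the compared arrays alone, the mean over a gene's probe sets, Col at RT as the control of C24, and each array left out.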

Additional observations from a re-analysis of the deposited data

Results flagged for a closer look

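The 24 h cold response differed between C24 and Col, by the test of the difference itself, for 8 of the named genes of chlorophyll synthesis and breakdown and for the 3 root markers. Of 11 synthesis genes, 6 were called lower and 1 higher, and of 2 breakdown genes 1 was called higher. Over all probe sets, 19.1% were called lower and 20.4% higher, so such calls were common. The response was lower in C24 for PORB (-1.40), HEMA2 (-0.86), HEMF2 (-0.77), HEME2 (-0.65), CHLI2 (-0.55) and HEMB1 (-0.40). It was higher in C24 for AT1G44000 (1.09, limma adjusted p = 1.35e-05) and AT1G74470 (0.42), and for the root markers PYK10 (1.54, limma adjusted p = 9.99e-07), EXPA18 (1.42) and EXPA7 (0.89). For HEMF2 the ecotypes stood 0.94 apart at RT and 0.16 apart after 24 h. Without Col 24 h replicate 1 the second of these was 0.36 and was called (limma adjusted p = 0.00838). For HEME2 they stood 0.08 apart at RT and -0.57 apart after 24 h, as for CHLM.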

How the results depend on the processing

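Of 242 recomputed differences of CHLM and HEME1, 241 kept their sign, and the exception was HEME1 between ecotypes after 24 h (0.05 without Col 24 h replicate 2). With another quantile normalisation CHLM stood at -0.24 (C24 3 h) and -1.76 (C24 24 h) against RT, at -0.74 between ecotypes after 24 h and at -0.81 for the difference of responses. With median centring it stood at -0.93 in Col, -0.23 at 3 h, -1.47 from 3 h to 24 h and 0.11 between ecotypes at RT. Against Col at RT, CHLM stood at -0.11 (3 h) and -1.63 (24 h) and HEME1 at -0.13 and -1.25. Of 242 recomputed counts of synthesis genes, 226 stayed within 1.5 times. At 3 h the count of lower genes was 3 against Col at RT. The count of higher genes was 2 from 3 h to 24 h with median centring, 1 between ecotypes after 24 h with the compared arrays alone, and 2 for the difference of responses with the trended prior.

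With single arrays left out, CHLM ran from -0.23 to -0.16 (3 h), -1.75 to -1.69 (24 h in C24), 0.05 to 0.12 (ecotypes at RT) and -0.79 to -0.72 (difference of responses). HEME1 ran from -1.30 to -1.12 (Col), -0.14 to 0.05 (ecotypes after 24 h) and -0.46 to -0.27 (difference of responses). Lower synthesis genes numbered 4 to 8 at 3 h and 0 to 1 between ecotypes at RT. Higher ones numbered 0 to 1 from 3 h to 24 h, 3 to 5 between ecotypes at RT and 0 to 3 after 24 h. The cause of these shifts was not tested.

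Against Col at RT, 12 called differences of listed genes turned sign: at 3 h GSA1 (0.02), HEMF2 (0.24), PORB (0.23), AT1G44000 (-0.05), LIL3:1 (0.31), PYK10 (-0.28), EXPA7 (-1.14) and EXPA18 (-1.38), and at 24 h LIL3:1 (0.12), LIL3:2 (0.16), PYK10 (-1.22) and EXPA18 (-1.64). These values include the ecotype difference at RT as well as the difference in the cold.

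Replicate numbers share no stated origin: the correlation of replicate differences between groups ran from -0.115 to 0.119. With the replicate number as a block, CHLM stayed at -0.96 in Col and -1.72 in C24, all synthesis counts kept within 1.5 times, and 3 calls of listed genes outside synthesis changed.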
